A study of Mus musculus with 2 samples.

Results

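The BCL2 family genes described here were 10 genes chosen by symbol from 55536 annotated genes. They comprised the survival genes Bcl2, Bcl2l1, Mcl1, Bcl2a1a, Bcl2a1b and Bcl2a1d, the pore-forming effectors Bax and Bak1, and the BH3-only genes Bcl2l11 and Bbc3. RNA-seq of polyadenylated RNA was done on 2 libraries of primary C57BL/6J macrophages, derived from bone marrow and exposed to a bacterial ligand at 100 ng/ml for 30 min. The labels disagree on the ligand, which is lipid A in one field and lipoprotein A in others. Both libraries, biological replicates 1 and 2, had a biosample record each but shared a donor record, and they made up a single group. There was no untreated sample, so no level below can be called induced or repressed, and age and sex were not recorded.

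Proteins of this family decide whether the outer membrane of the mitochondrion stays sealed. BAX and BAK1 open it and release cytochrome c, and BCL2, BCL-XL (from Bcl2l1), MCL1 and A1 (from the Bcl2a1 genes) bind and restrain them. BH3-only proteins such as BIM (from Bcl2l11) and PUMA (from Bbc3) sense stress and occupy or bypass the survival proteins. In macrophages, MCL1 is a short-lived protein whose mRNA is continually remade, and A1 is a known target of NF-kB. The mouse carries several near-identical Bcl2a1 genes, so short reads from them are hard to assign.

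Replicate 1 held 37784941 expected counts over genes and replicate 2 held 51904470. Levels are given as TPM (a relative abundance scaled by transcript length), replicate 1 before replicate 2. The deposited files held a gene table and, from a separate quantification, a second transcript table, which was summed per gene. In the second quantification TPM was lower for most genes, with a median ratio to the gene table of 0.82 and 0.90 over 10533 genes. Ribosomal RNA genes took 10.9% and 5.05% of the counts, which touches every relative level. All 8 macrophage markers were detected, with a summed level of 21671 and 27510 TPM, of which Lyz2 made up 15907 and 22127. In the comparison of libraries described further on, 6 of the 8 were called lower in replicate 2 and 2 higher. Among all tested genes, 31.3% were called lower and 32.2% higher. Past 1.5-fold, 1 macrophage marker was lower and 0 were higher, beside 7.98% and 13.1% of all tested genes. Of the 12 neutrophil markers 5 reached 1 TPM in each library, the summed level of the list was 406 and 103 TPM, and Ly6g had 1 and 0 counts. In the gene table Cd8a and Fcer1a, which mark T cells and mast cells, were at 0 in both libraries. Of the other T cell markers Cd4 was at 111 and 82.2 TPM and the rest below 1 TPM. Of 5 mast cell and basophil markers 0 reached 1 TPM in each library, with Kit at 0.82 and 2.32 TPM. All 4 monocyte markers reached it, such as Ly6c2 at 15.7 and 8.38 TPM. Of 5 dendritic cell markers 2 did, Itgax at 7.11 and 3.88 TPM and Batf3 at 4.47 and 4.48 TPM. Of 5 B cell markers 1 did, Cd79b at 3.88 and 1.43 TPM. In such bulk samples, fewer cells of a type and less RNA per cell cannot be told apart.

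All 10 family members reached 1 TPM in each library, as did 19.2% of all genes. Their median was 45.9 and 62.7 TPM, beside 15.3 and 17.1 TPM for all genes at that level. Survival genes held both ends of the range, from Mcl1 to Bcl2. In descending mean level the order was Mcl1, Bcl2a1b, Bax, Bak1, Bcl2l11, Bcl2l1, Bcl2a1d, Bbc3, Bcl2a1a and Bcl2. The ranges of the 2 libraries overlapped between the neighbours Bax and Bak1 and between Bcl2l1 and Bcl2a1d. Each of these pairs changed order between libraries, so its order was not settled. Beyond neighbours, the range of Bcl2a1d (18.3 and 54.3 TPM) also overlapped that of Bcl2l11 (49.0 and 71.1 TPM). Within each library, however, Bcl2l11 was above Bcl2a1d. The other neighbours did not overlap in the gene table, while in the second quantification Bcl2a1b also overlapped Bax, and Bcl2a1a overlapped Bcl2. Within each library of the second quantification, Bcl2a1b was still above Bax and Bcl2a1a above Bcl2.

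**Figure D1:**
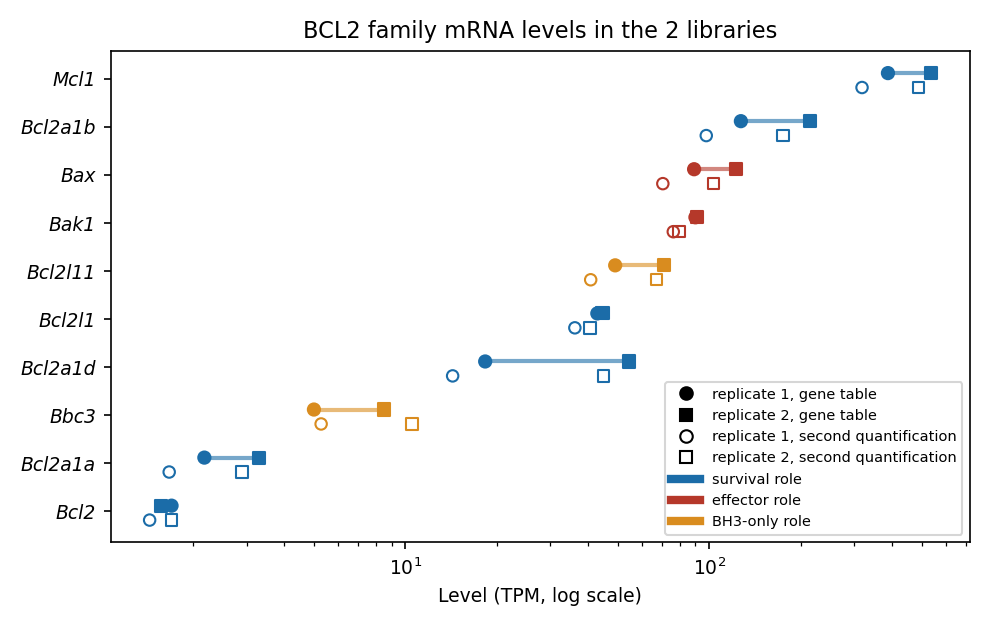
Level of each BCL2 family gene in TPM (log scale) in replicate 1 (circles) and replicate 2 (squares), from the gene table (filled, joined by a line) and the second quantification (open), coloured by role. Mcl1 lies highest at 387 and 535 TPM and Bcl2 lowest at 1.70 and 1.57 TPM in the gene table, with Bcl2a1d showing the widest gap between libraries.

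Mcl1 (ENSMUSG00000038612.16, chromosome 3, 95658788 to 95663176, plus strand, mm10) encodes the short-lived guardian against BAK1 and BIM. It was at 387 and 535 TPM, a mean of 461 ± 105 (SD, n = 2), from 30471 and 59437 counts. It stood at the 97.0th and 97.8th percentile of all detected genes. Mcl1 alone made up 66.9% and 62.7% of the summed TPM of the 6 survival genes. The transcript Mcl1-201 held 100% of the gene's TPM to the rounding used here.

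Bcl2l1 (ENSMUSG00000007659.18, chromosome 2, 152780668 to 152831728, minus strand) encodes BCL-XL and its shorter splice form. It was at 42.8 and 44.5 TPM, a mean of 43.7 ± 1.15 (SD, n = 2), from 2131 and 3098 counts. The libraries lay close together. Bcl2 (ENSMUSG00000057329.7, chromosome 1, 106538178 to 106714274, minus strand), the founding member, was at 1.70 and 1.57 TPM, a mean of 1.64 ± 0.0919 (SD, n = 2). That level rested on 286 and 367 counts, and it placed Bcl2 at the 4.90th and 3.16th percentile of detected genes. In the gene table the founding survival gene was the scarcest of the 10 mRNAs, below both Bcl2a1a libraries. In the second quantification, with Bcl2 at 1.44 and 1.70 TPM and Bcl2a1a at 1.67 and 2.9 TPM, the ranges overlapped. Within each library Bcl2 was still below Bcl2a1a.

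Bcl2a1b, Bcl2a1d and Bcl2a1a are neighbouring copies on chromosome 9 that encode A1 proteins. Bcl2a1b (ENSMUSG00000089929.1, 89199209 to 89207827, plus strand) was at 127 and 215 TPM, a mean of 171 ± 62.8 (SD, n = 2), from 1747 and 4026 counts. Bcl2a1d (ENSMUSG00000099974.1, 88723285 to 88731914, minus strand) was at 18.3 and 54.3 TPM, a mean of 36.3 ± 25.4 (SD, n = 2), from 274 and 1103 counts. Bcl2a1a (ENSMUSG00000102037.1, 88956900 to 88962419, plus strand) was at 2.18 and 3.29 TPM, a mean of 2.74 ± 0.785 (SD, n = 2), from 30.3 and 61.6 counts. Every copy was higher in replicate 2 than in replicate 1 on this scale. Together the copies held 147 and 273 TPM, or 18.1% and 23.8% of the TPM of all 10 genes, second to Mcl1.

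How far the reads of the copies can be told apart depends on the sequence. The coding sequence of each copy was 516 bases long without the stop codon and spread over 2 exons. Bcl2a1a and Bcl2a1b differed at 11 positions (97.9% identity), Bcl2a1a and Bcl2a1d at 7 (98.6%), and Bcl2a1b and Bcl2a1d at 6 (98.8%). In all 12 positions varied, 7 of them in the first 105 bases, shown here from the reference annotation because most of the variable positions lie there. Capitals mark the positions that differ among the 3 copies, counted from 1 at the A of the start codon.
Bcl2a1a: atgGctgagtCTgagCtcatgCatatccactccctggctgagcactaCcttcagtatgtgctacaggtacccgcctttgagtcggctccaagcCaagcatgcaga
Bcl2a1b: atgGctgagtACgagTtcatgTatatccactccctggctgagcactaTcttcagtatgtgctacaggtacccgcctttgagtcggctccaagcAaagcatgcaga
Bcl2a1d: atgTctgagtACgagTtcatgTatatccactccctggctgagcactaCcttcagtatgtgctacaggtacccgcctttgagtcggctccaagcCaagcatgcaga

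In this stretch, reading from Bcl2a1b to Bcl2a1d, the substitutions were G4T, T48C and A94C. Reading from Bcl2a1a to Bcl2a1b they were C11A, T12C, C16T, C22T, C48T and C94A. The more expressed copies therefore share the bases at 11, 12, 16 and 22 that set Bcl2a1a apart. Between positions 95 and 311 the copies were identical, a run of 217 bases. A read wholly inside this run carries nothing that separates them. The next variable positions are shown in capitals in the stretch from 300 to 420, printed because it is the next place where a read can be assigned.
Bcl2a1a: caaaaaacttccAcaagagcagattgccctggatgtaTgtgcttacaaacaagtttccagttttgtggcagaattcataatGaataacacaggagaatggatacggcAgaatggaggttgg
Bcl2a1b: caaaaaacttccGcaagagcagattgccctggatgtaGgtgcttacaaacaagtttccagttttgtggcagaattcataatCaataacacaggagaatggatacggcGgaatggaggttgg
Bcl2a1d: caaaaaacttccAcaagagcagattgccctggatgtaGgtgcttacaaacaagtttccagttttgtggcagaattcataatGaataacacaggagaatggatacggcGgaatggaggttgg

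Here the substitutions from Bcl2a1b to Bcl2a1d were G312A and C381G, and those from Bcl2a1a to Bcl2a1d were T337G and A407G. The remaining difference in the coding sequence, at position 490, set Bcl2a1b apart (T490A towards Bcl2a1d). Over the whole transcripts, 43.5% of the 100-base windows of Bcl2a1a, 56.8% of those of Bcl2a1b and 54.7% of those of Bcl2a1d also occurred in another annotated gene. With windows of 31 bases, these shares were 79.6%, 88.8% and 89.1%. Bcl2a1a shared 313 of its 720 windows of 100 bases with Bcl2a1d and 118 with Bcl2a1b. Bcl2a1b also shared 303 windows with Gm29094, a gene annotated on the same strand across it, which was at 2.78 and 1.69 TPM in the gene table and 4.63 and 5.68 TPM in the second quantification. For the 7 other members, 100-base windows of the leading transcript were found in no other gene or only in an overlapping gene, at most 12.2% of them (Bax, with Gm45808, at 0 and 0.53 TPM).

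**Figure D2:**
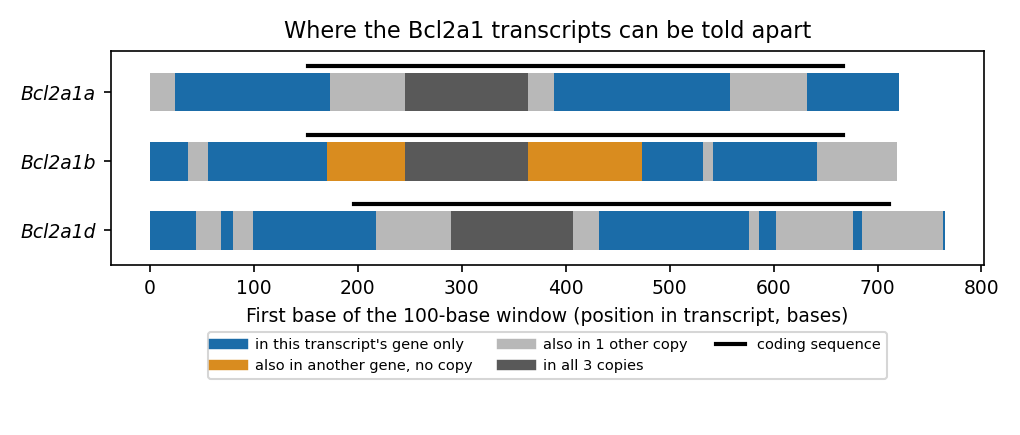
Every 100-base window along the transcripts of the 3 Bcl2a1 copies, plotted by its first base in the transcript and coloured by where else the same letters occur; the black line marks the coding sequence. A block in the middle is common to all 3 copies, and windows found in the transcript's own gene only lie on both sides of it.

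Both quantifications split the copies' reads the same way. Bcl2a1b took 85.2% of the counts of the 3 copies in replicate 1 (95% Wilson interval 83.5% to 86.6%) and 77.6% in replicate 2 (76.4% to 78.7%) in the gene table. In the second quantification it took 85.1% and 77.3%. Bcl2a1d took 13.4% (11.9% to 14.9%) and 21.2% (20.2% to 22.4%), and 13.4% and 21.4% in the second quantification. Its intervals in the 2 libraries did not overlap, so the split itself differed between replicates beyond counting error. Bcl2a1a took 1.48% (1.03% to 2.08%) and 1.19% (0.933% to 1.53%), whose intervals overlapped. The count ratio of Bcl2a1b to Bcl2a1d was 6.37 in replicate 1 and 3.65 in replicate 2, and 6.33 and 3.62 in the second quantification. These intervals cover counting error only, not the assignment of shared reads. The deposited posterior SD of the counts, which does reflect assignment, was 5.84 and 7.88 reads for Bcl2a1b, 4.63 and 7.92 for Bcl2a1d, and 2.72 and 3.99 for Bcl2a1a. Those spreads are small beside the counts of Bcl2a1b and Bcl2a1d. A further annotated copy, Bcl2a1c, had 2 and 5 counts.

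**Figure D3:**
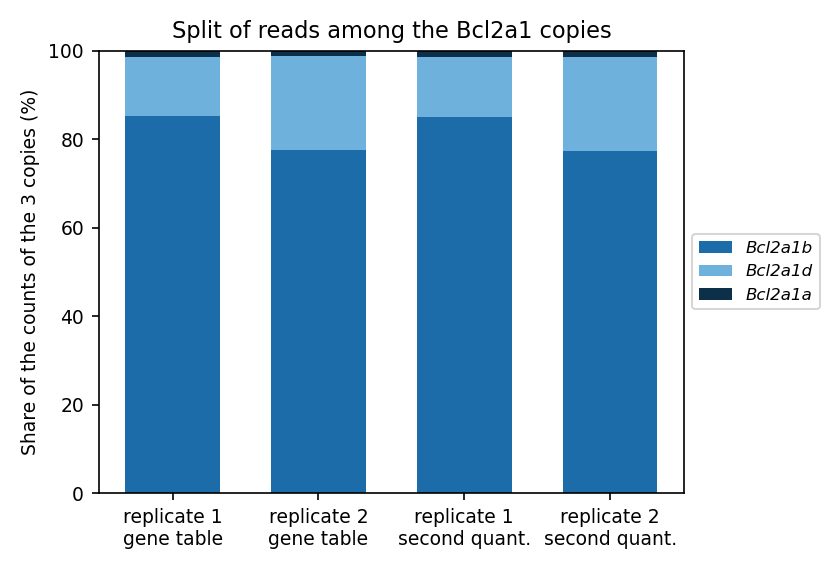
Share of the summed estimated counts of Bcl2a1b, Bcl2a1d and Bcl2a1a that each copy took, in percent, for both replicates and both quantifications. Bcl2a1b takes 85.2% and 77.6% in the gene table, and 85.1% and 77.3% in the second quantification.

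The sequence just upstream of the copies was also alike. The stretch of 90 bases shown lies before the annotated transcript start of each copy and comes from RefSeq promoter windows (GRCm38.p6). It spans chr9:88956766-88956855 (plus strand) for Bcl2a1a, chr9:89199075-89199164 (plus strand) for Bcl2a1b and chr9:88731915-88732004 (minus strand) for Bcl2a1d. It is printed because the copies differ in level while this sequence hardly does. Capitals mark GAGGAA, a core recognised by PU.1 and other ETS factors of myeloid cells, and matches to TGANTCA, the AP-1 motif.
Bcl2a1a: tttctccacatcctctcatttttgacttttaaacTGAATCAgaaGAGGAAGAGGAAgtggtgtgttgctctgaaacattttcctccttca
Bcl2a1b: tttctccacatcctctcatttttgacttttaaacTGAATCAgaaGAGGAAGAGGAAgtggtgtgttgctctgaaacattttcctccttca
Bcl2a1d: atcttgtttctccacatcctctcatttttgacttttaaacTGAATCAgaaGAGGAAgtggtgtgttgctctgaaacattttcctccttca

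On the strand shown, GAGGAA stood 2 times in Bcl2a1a and Bcl2a1b and 1 time in Bcl2a1d, and the AP-1 match 1 time in each. Bcl2a1a, at 2.18 and 3.29 TPM, and Bcl2a1b, at 127 and 215 TPM, carried the same letters over the whole stretch. The motifs were chosen after the sequences had been seen, so a match is a description only. Over both strands, GAGGAA occurred in 28.3% of all 32851 RefSeq promoter windows of 300 bases and TGANTCA in 7.81%. Among the 15 windows of the 10 genes, 5 held GAGGAA and the 3 of the Bcl2a1 copies held TGANTCA. The NF-kB consensus was found in windows of Bbc3 and Bcl2l1 (4.51% of all windows). TGTTTAC, a FOXO motif, was in windows of Bbc3 and Bcl2l11 (3.65%). RRRCWWGYYY, only a part of a full p53 motif, was in the window of Bax (8.36%). The CRE motif TGACGTCA (1.79%) and the CArG box (1.63%) were in none of the 15 windows.

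The effectors Bax and Bak1 overlapped in level in the gene table. Bax (ENSMUSG00000003873.11, chromosome 7, 45461697 to 45466898, minus strand), a cytosolic protein that moves to mitochondria, was at 89.1 and 122 TPM, a mean of 106 ± 23.5 (SD, n = 2), from 1392 and 2635 counts. Bak1 (ENSMUSG00000057789.14, chromosome 17, 27019810 to 27029009, minus strand), which resides in the mitochondrial membrane, was at 90.0 and 90.9 TPM, a mean of 90.4 ± 0.629 (SD, n = 2), from 3534 and 4557 counts. Bax was slightly below Bak1 in replicate 1 and above it in replicate 2. Bok, the remaining effector of the family, had 0 counts in both libraries, which allows up to 3 counts, or 0.0794 and 0.0578 CPM (counts scaled to the library's total).

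Of the BH3-only pair, Bcl2l11 was the more abundant. Bcl2l11 (ENSMUSG00000027381.16, chromosome 2, 128126038 to 128162547, plus strand), which encodes BIM, was at 49.0 and 71.1 TPM, a mean of 60.1 ± 15.6 (SD, n = 2), from 5262 and 10128 counts. Bbc3 (ENSMUSG00000002083.13, chromosome 7, 16308393 to 16318205, plus strand), which encodes PUMA, was at 5.0 and 8.48 TPM, a mean of 6.74 ± 2.46 (SD, n = 2), from 137 and 364 counts. Bbc3 was the member whose second quantification stood above the gene table in both libraries, at 5.28 and 10.5 TPM. Its ranges did not overlap those of Bcl2l11.

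Summed by role over the 10 genes, survival mRNA outweighed the rest. The 6 survival genes held 578 and 854 TPM (716 ± 195, SD, n = 2). That was 71.3% and 74.5% of the TPM of all 10 genes. The effectors held 179 and 213 TPM (196 ± 24.1) and the BH3-only pair 54.0 and 79.6 TPM (66.8 ± 18.1). The ratio of survival TPM to effector plus BH3-only TPM was 2.48 and 2.92, a mean of 2.70 ± 0.31 (SD, n = 2). Without Mcl1 the ratio was 0.82 and 1.09, on either side of 1. With Bcl2l2 added to the survival genes and Bok, Bid, Bad, Bik, Bmf, Hrk and Pmaip1 to the others, it was 1.79 and 1.91. These are sums of mRNA, and protein was not measured.

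The 2 replicates were next compared with each other, to show how far a level can be read from 1 library. Counts were scaled by TMM (edgeR) and each gene was tested with an exact binomial test, two-sided, with Benjamini-Hochberg adjustment at 0.05 over 12266 genes. It sets 1 library against the other, not a condition against another, so a call says that the libraries differ beyond sampling noise. Of all tested genes 63.5% were called, 32.2% as higher and 31.3% as lower in replicate 2. Of the 10 members 7 were called, 6 as higher and 1 as lower. Bcl2a1b and Bcl2a1d, both called higher, share sequence and are not independent. At a 1.5-fold limit, 13.1% of tested genes were higher in replicate 2 and 7.98% lower. Past that limit, 3 members were higher and 0 lower. The members' median log2 ratio was 0.38, and that of all tested genes was 0.00.

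Bcl2a1d differed most, at 7.56 and 20.4 CPM, a ratio of 2.70 (95% counting interval 2.36 to 3.10, adjusted p = 6.66e-57, exact binomial test). Its log2 ratio of 1.43 was above the 95th percentile of all tested genes, 1.00. Bbc3, at 3.78 and 6.74 CPM, had a ratio of 1.78 (1.46 to 2.19, adjusted p = 8.85e-09, exact binomial test). Bcl2a1b, at 48.2 and 74.5 CPM, had a ratio of 1.55 (1.46 to 1.64, adjusted p = 8.09e-54, exact binomial test). In the second quantification the log2 ratio of Bcl2a1b was 0.58, just under 1.5-fold. In the gene table these 3 members were past 1.5-fold. Counting the copies as a single gene gave 2052 and 5191 reads and a ratio of 1.70 (log2 0.76, adjusted p = 1.63e-96, exact binomial test).

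Mcl1, Bcl2l11 and Bax were higher in replicate 2 by smaller amounts, with ratios of 1.31, 1.29 and 1.27 and log2 ratios of 0.39, 0.37 and 0.35. Bak1 was called lower, at 97.5 and 84.4 CPM, a ratio of 0.87 (0.83 to 0.90, adjusted p = 5.15e-10, exact binomial test), while its TPM ratio was 1.01. For Bak1 the direction therefore depended on the scale. Bcl2l1 had a log2 ratio of -0.04 (adjusted p = 0.466, exact binomial test), which was 0.08 with scaling by total counts. Bcl2 had a ratio of 0.86 (0.74 to 1.01, adjusted p = 0.0904) and Bcl2a1a one of 1.39 (0.88 to 2.22, adjusted p = 0.224), both by the exact binomial test and neither called. In the second quantification the log2 ratio of Bcl2 was -0.13. The interval of Bcl2a1a, from few counts, included both 1 and the ratio of Bcl2a1b. Scaling by total counts moved the median of all genes to 0.12 and the share of higher calls among all calls from 50.6% to 67.9%.

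**Figure D4:**
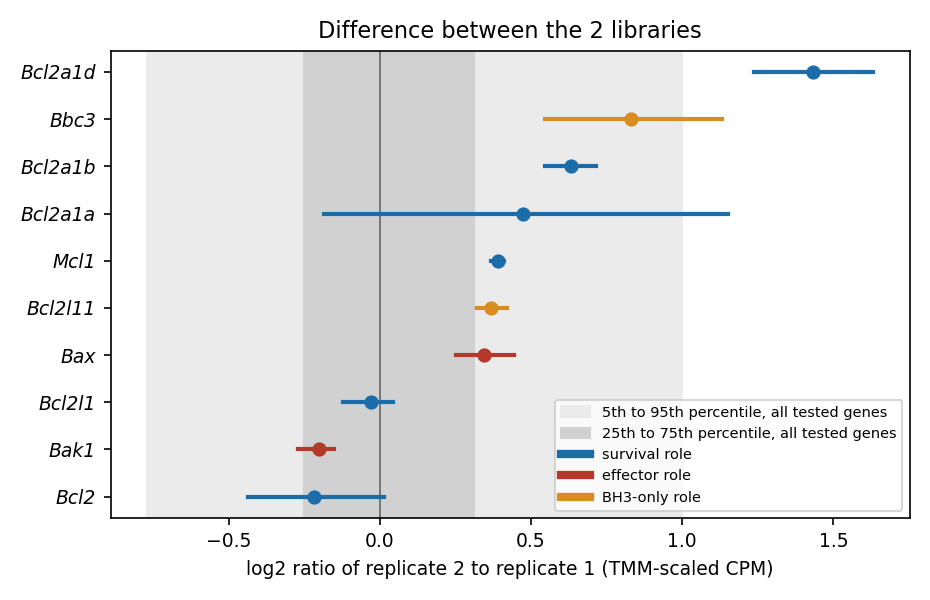
The log2 ratio of replicate 2 to replicate 1 in TMM-scaled CPM for each BCL2 family gene, with its 95% counting interval as a bar and the role as colour. Grey bands give the 5th to 95th (-0.77 to 1.00) and 25th to 75th (-0.25 to 0.31) percentiles of 12266 tested genes, and Bcl2a1d at 1.43 is the member outside the wider band.

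Other measures also differed between the libraries, and their part in the differences of the members was not tested. With only 2 libraries, a shared direction does not link measures to each other. A list of known NF-kB targets in macrophages was chosen with earlier results of these data known, so its count is a description only. All 16 of its genes were called higher in replicate 2, beside 32.2% of all tested genes, with a median log2 ratio of 1.01. Among them Nfkbia, the inhibitor of NF-kB, was at 545 and 1178 TPM, Tnf at 855 and 1691 TPM, and Il1b at 146 and 734 TPM. Of the 6 neutrophil markers tested, 5 were called lower in replicate 2 and 0 higher, beside 31.3% and 32.2% of all tested genes. By mean level the most abundant was S100a9, with 183 TPM in replicate 1 and 37.1 TPM in replicate 2. Kit, found on mast cells and progenitors, was at 0.82 and 2.32 TPM.

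Annotated transcripts differed in how clearly 1 form led. In the first transcript table, Bcl2l1 was split between the coding forms Bcl2l1-201, with 45.2% and 45.1% of its TPM, and Bcl2l1-202, with 41.0% and 40.2%. In the second quantification Bcl2l1-202 led instead, with 44.5% and 42.9% against 35.7% and 35.7%. Which of them led was therefore not settled. For the other 9 members the same transcript led in both libraries and both quantifications. Among these, the 3 Bcl2a1 copies have a single annotated transcript each, so theirs could not differ.

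Bak1 stood apart in the class of its transcripts. Forms annotated as targets of nonsense-mediated decay, Bak1-201 and Bak1-204, held 60.7% and 62.4% of its TPM, and 62.3% and 56.6% in the second quantification. The leading form was Bak1-204, with 38.2% and 41.2%. Among 3088 detected coding genes with a decay-annotated transcript, the median share of such forms was 1.19% and 2.13%, and 101 genes (3.27%) exceeded 50% in both libraries. Counting protein-coding transcripts only, Bak1 was at 35.3 and 34.2 TPM, below Bax in both libraries. On that count the effectors held 124 and 156 TPM, and the ratio of survival to other TPM was 3.30 and 3.72. Exons of Bak1 also overlap Ggnbp1 on the opposite strand. The 2 identifiers of Ggnbp1 were at no more than 1.04 TPM in the gene table and 1.43 TPM in the second quantification. Those levels themselves depend on how shared reads were assigned, and whether counting used strand is not stated. The part of this overlap in the split of Bak1 was not tested.

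Bax-201 held 83.6% and 74.0% of the TPM of Bax, and Bcl2l11-205 held 83.0% and 76.5% of that of Bcl2l11. Bcl2-201, the long form, held 95.9% and 92.4%, and 90.9% and 76.9% in the second quantification, where Bcl2-202 reached 23.1% in replicate 2. For Bbc3, the coding form Bbc3-201 held 51.4% and 69.5% and the form with a retained intron, Bbc3-203, 48.6% and 22.9%. In TPM the retained form was at 2.43 and 1.94, while Bbc3-201 was at 2.57 and 5.89. The second quantification gave Bbc3-201 54.4% and 55.2% and the retained form 35.3% and 24.2%, so the split of Bbc3 between forms was not settled.

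**Figure D5:**
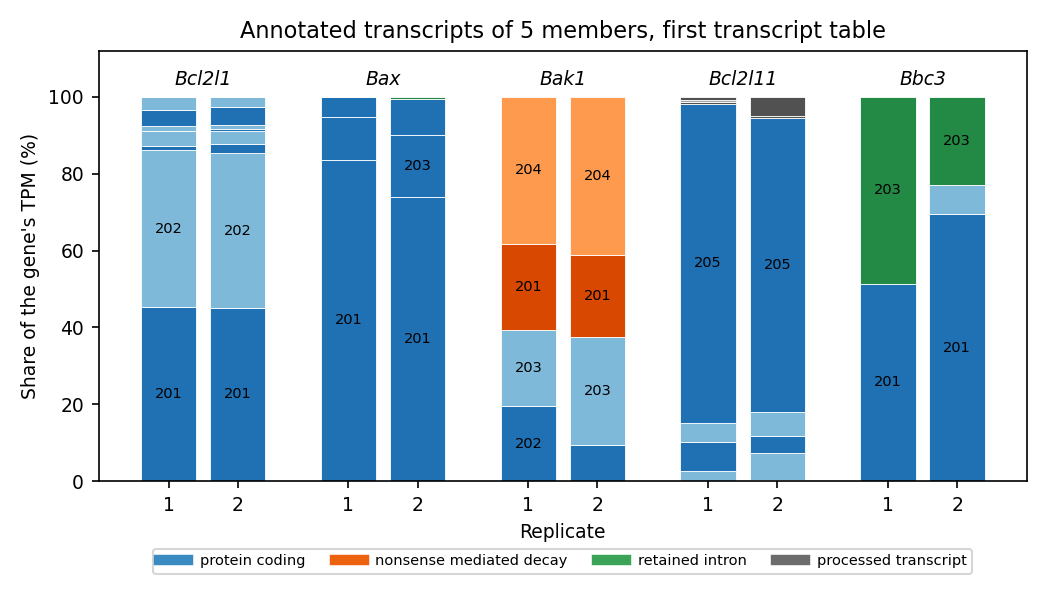
Share of each gene's TPM, in percent, held by its annotated transcripts in replicates 1 and 2 for Bcl2l1, Bax, Bak1, Bcl2l11 and Bbc3, coloured by annotated class and labelled by transcript number where the share is 15% or more. The forms of Bak1 annotated for nonsense-mediated decay hold 60.7% and 62.4%, and the retained-intron form of Bbc3 holds 48.6% and 22.9%.

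The rest of the family was described from a fixed list of 16 genes, of which 9 reached 1 TPM in each library. Of the 9 tested, 3 were called higher in replicate 2, 3 lower and 3 neither, with a median log2 ratio of 0.05. The shares among all tested genes were 32.2% higher and 31.3% lower. Pmaip1, which encodes the BH3-only protein NOXA that targets MCL1, was at 24.7 and 67.3 TPM, a ratio of 2.61 (log2 1.38, adjusted p = 5.65e-276, exact binomial test). Bmf, a BH3-only gene too, was at 4.44 and 8.33 TPM, and Bid, cleaved by caspase-8, at 24.5 and 29.3 TPM. Bad, regulated by phosphorylation, was at 43.3 and 54.8 TPM and was not called (log2 0.05, adjusted p = 0.585, exact binomial test). Bnip3l, a receptor for the removal of mitochondria, was at 103 and 84.0 TPM and was called lower. Bok, Hrk and Bcl2l10 were at 0 counts in both libraries.

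Downstream, all 13 genes of the mitochondrial death machinery were detected. Of these, 4 were called higher, 6 lower and 3 neither, with a median log2 ratio of -0.11. For this list and the caspase list below, the shares among all tested genes were 32.2% higher and 31.3% lower. The channels Vdac2 and Vdac1, of which VDAC2 binds BAK1, were at 277 and 247 and at 218 and 150 TPM. Apaf1, the scaffold of the apoptosome, was at 23.1 and 29.1 TPM. Of 12 genes that brake caspases or serve death receptors, 4 were higher, 5 lower and 3 neither, with a median log2 ratio of -0.07. Casp8 was at 64.6 and 68.3 TPM (ratio 1.00, not called) and Ripk1 at 61.1 and 54.2 TPM (ratio 0.86, called lower). Birc3 (cIAP2) was at 34.5 and 80.4 TPM, and at 47.0 and 149 TPM in the second quantification, and Cflar (cFLIP) at 38.6 and 74.8 TPM. Birc5 (survivin), a gene of dividing cells, was at 8.34 and 1.61 TPM.

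A list drawn up around turnover of MCL1 and BIM protein held 7 genes, including Dnm1l, whose part in that turnover is not established here. Of 6 tested, 3 were higher (Dnm1l among them), 1 lower and 2 neither, with a median log2 ratio of 0.15. March5 and the deubiquitinase Usp9x, which act on MCL1, were at 65.4 and 95.9 and at 42.6 and 46.5 TPM. A further list held 9 genes, which were p53 and FOXO factors upstream of PUMA and BIM, targets such as Cdkn1a, and Ddit3 and Trib3. Of these 8 were tested, and 4 were higher, 0 lower and 4 neither, with a median log2 ratio of 0.20. Among all tested genes 32.2% were called higher and 31.3% lower. Ddit3 was among the higher genes, with a ratio of 1.32. Cdkn1a (p21) was at 272 and 667 TPM, Mdm2 at 45.9 and 76.2 TPM and Trp53 itself at 29.6 and 38.5 TPM. Foxo3, a known activator of Bcl2l11, was at 30.8 and 31.6 TPM.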

How the data were processed

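The 2 libraries were polyA RNA-seq of bone marrow-derived macrophages in 1 group. Per the labels and the deposited text files, values were made on mm10 with annotation M21, and no source used here names the quantification tools. The column layouts are those of RSEM (gene and first transcript tables) and kallisto (second transcript table). Expected counts and TPM per gene and transcript are as deposited by the authors, as are the estimated counts and TPM of the second table, which were summed per gene. Whether counting used strand is not stated. Entries naming no gene (0.0891% and 0.0698% of counts, replicates 1 and 2) were left out.

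Counts were rounded, filtered with filterByExpr and scaled by TMM (edgeR 4.0.16, R 4.3.3). Each gene was compared between libraries by an exact binomial test (scipy 1.17.1), with Benjamini-Hochberg adjustment over 12266 genes, and log2 ratios added 0.5 to each count. The test was checked on simulated counts. A gene counted as detected when each library had at least 1 TPM. Percentiles are over detected genes. Intervals are 95% exact binomial for ratios and Wilson for shares. Depth was 37784941 and 51904470 counts. The same-strand, copy and window comparisons used the GENCODE M21 transcripts, whose build matches the files.

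The members and gene lists were chosen with earlier results of these data known. Named were all 10 members and, of other lists, genes among the 4 highest, those below 1 TPM and those called and over 2-fold apart. Bmf, Apaf1 and Foxo3 were further named for their roles after their values were seen. Ddit3 has 2 identifiers, and the one with more reads was used. With 1 group, no test between conditions was possible. Alternatives were DESeq2 1.42.0 size factors, total counts, no filter, the second table, posterior mean TPM, other limits and each library alone.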

Additional observations from a re-analysis of the deposited data

How the results depend on the processing

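Counts of members detected and called and of leading transcripts kept within 1.5 times of the reported values under every alternative run. That limit is wide, since 8 members were detected at a limit of 5 TPM and 9 leading transcripts held in the second quantification. Shares of the 3 Bcl2a1 copies moved by less than 1 SD with the second quantification or with TPM. With n = 2, each library alone always lies within 1 SD of the mean, so that comparison decides nothing. The Bcl2a1d share was 13.4% in replicate 1 and 21.2% in replicate 2. Members past 1.5-fold numbered 3, and 1 at a 2-fold limit. The mean ratio of survival to other TPM, 2.70, was 3.51 with protein-coding transcripts only, 1.85 with 8 other family members added and 0.96 without Mcl1; each library alone gave 2.48 to 2.92. With total-count scaling the Bcl2l1 log2 ratio changed sign to 0.08. Calls with all genes unfiltered numbered 4270 higher and 3922 lower. The binomial test needs both libraries, so it has no value with either left out. No paired analysis was possible because there was 1 group. Depth limits Bcl2a1a most, at 30.3 and 61.6 counts.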
